A study of Mus musculus with 4 samples.

Results

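A set of 9 lymphoid genes, of the 23980 genes quantified, was followed through the transcriptomes of L/Z spermatocytes. These are Ly6d, the B cell genes Cd79a, Cd79b and Ms4a1, the T cell genes Cd3e and Cd3g, and the general leukocyte genes Ptprc, Cd52 and Coro1a. The set was selected on the Ly6d values, since fragments of Ly6d were found in the Pld6 KO library alone, and the question put to the data was whether B or T cell genes go with it. These values are therefore given as a description without a test. The other 8 genes were named by their known cell type, with earlier results of these data known.

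L/Z spermatocytes are male germ cells at the leptotene and zygotene stages of meiosis. They were sorted by FACS, by Hoechst staining per the study's methods, from testes of F1 hybrid mice (C57BL/6J and MSM/Ms) aged 3 to 4 weeks, and their polyA(+) RNA was sequenced in 4 libraries. Pld6 encodes a nuclease-like protein of the mitochondrial surface needed to make piRNAs, and Dnmt3l encodes a catalytically inactive partner of the de novo DNA methyltransferases. There was 1 Pld6 KO and 1 Dnmt3L KO library. The 2 controls were a Pld6 WT and a Dnmt3L heterozygote library (Dnmt3L Het below, with 1 mutant Dnmt3l allele). Both lines had been backcrossed to C57BL/6J and then crossed with MSM/Ms mice. How many animals went into a library is not given in the sources used here. The 2 controls differ in genotype and line, so the spread between them is not that of replicate animals. Both mutants were set against the same 2 controls.

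Ly6d encodes a GPI-anchored surface protein of the Ly6/uPAR family, which marks lymphoid progenitors that turn to the B lineage and is also made by stratified epithelia. In B cells, CD79A and CD79B form the signalling pair of the B cell receptor, which passes the signal on through SYK, BTK, BLNK and PLCG2. In T cells, the CD3 chains and CD247 do the same for the T cell receptor through LCK, ZAP70 and LAT. CD45, the product of Ptprc, is a phosphatase on the surface of nearly all white blood cells. Leukocytes do occur in the testis, mainly as macrophages between the tubules, while the germ cells at the L/Z stage lie within the tubules.

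The depth, in fragments assigned to genes, lay between 30439943 (Pld6 KO) and 63875934 (Dnmt3L Het). The targeted genes followed the labels. Pld6 had 14 fragments (0.334 FPKM) in the Pld6 KO against 592 to 1643 in the other libraries, and Dnmt3l had 0 in the Dnmt3L KO against 20 to 101. FPKM, fragments scaled to gene length and library depth, is the scale on which levels of different genes are compared here. All 12 genes of an L/Z germ cell list were detected in every library, with a summed level of 1357 to 3460 FPKM. Markers of other cells differed widely between the libraries, all labelled as L/Z spermatocytes. The 8 spermatid genes summed to 6925 FPKM in the Dnmt3L Het, 132 in the Pld6 WT, 9.79 in the Pld6 KO and 27.7 in the Dnmt3L KO. The 12 Sertoli cell genes summed to 3777 FPKM in the Dnmt3L Het and 5230 in the Dnmt3L KO, against 135 and 340 in the Pld6 WT and KO. The part of these differences in the results that follow was not tested. In such bulk RNA, fewer cells of a type and less RNA per cell cannot be told apart.

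All 9 genes are protein coding, and their positions are given in mm10. Ly6d lies on chromosome 15 (74762056 to 74763567), Cd79a on chromosome 7 (24897497 to 24901858), Cd79b on chromosome 11 (106311341 to 106314562) and Ms4a1 on chromosome 19 (11249679 to 11266149). Cd3e (44998735 to 45009663) and Cd3g (44969572 to 44980431) lie close together on chromosome 9. Ptprc lies on chromosome 1 (138062859 to 138175756), Cd52 on chromosome 4 (134093538 to 134095073) and Coro1a on chromosome 7 (126699774 to 126704816). Cd79a alone is on the plus strand. Some genes overlap others on the opposite strand. Cd3e shares 135 exon bases with the antisense RNA Gm48719, Cd52 172 with Crybg2 and Coro1a 26 with Bola2. The library kit keeps the strand, but whether the counting used it is not stated, so reads from these stretches may be assigned to either gene.

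The promoters of Cd79a and Cd3e are printed because these 2 receptor genes lay on opposite sides of the controls in the Pld6 KO library. RefSeq promoter windows of GRCm38.p6 (250 bases before to 50 after a start of the gene) were at hand for 5 of the 9 genes, Cd79a, Cd3e, Cd3g, Ptprc and Coro1a. Capitals mark GGAAGT or its reverse complement ACTTCC, a core bound by ETS factors. The Cd79a window is chr7:24897247-24897546 on the plus strand and the Cd3e window chr9:45009562-45009861 on the minus strand, each written 5′ to 3′ in the direction of its gene.
Cd79a: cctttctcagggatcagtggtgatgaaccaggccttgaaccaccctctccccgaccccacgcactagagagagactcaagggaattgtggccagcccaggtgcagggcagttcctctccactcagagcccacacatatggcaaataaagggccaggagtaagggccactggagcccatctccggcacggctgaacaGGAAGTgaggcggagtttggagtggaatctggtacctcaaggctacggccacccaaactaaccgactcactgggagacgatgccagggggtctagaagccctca
Cd3e: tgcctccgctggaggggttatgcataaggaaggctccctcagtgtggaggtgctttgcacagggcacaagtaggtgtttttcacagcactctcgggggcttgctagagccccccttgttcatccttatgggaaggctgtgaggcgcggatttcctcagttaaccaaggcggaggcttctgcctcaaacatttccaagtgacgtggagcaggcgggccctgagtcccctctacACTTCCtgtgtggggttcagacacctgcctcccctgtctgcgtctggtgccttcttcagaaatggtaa
Each window held 1 match, 54 bases before the start used for the Cd79a window and 18 bases before that used for Cd3e. The position given above for Cd3e reaches 45009663, upstream of the start used for its window. The Cd3e match therefore lies within the gene as positioned above. On either strand this core was found in 23.8% of 32851 promoter windows. The palindromic core CCCNNGGG, bound by the B cell factor EBF1, was found in 13.7% of the windows and in neither of these 2. Only exact matches were counted, so sites that depart from this core are missed, and the absence of EBF1 sites is not shown. Of the windows not printed, those of Ptprc also held the ETS core, and those of Cd3g and Coro1a did not. A Coro1a window held 1 CCCNNGGG match. Whether either core bears on the level of any of these genes was not tested.

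Ly6d was listed with 91 fragments in the Pld6 KO library and with 0 in the Dnmt3L Het, the Pld6 WT and the Dnmt3L KO. The level in the Pld6 KO was 5.87 FPKM (95% Poisson interval 4.73 to 7.21, which covers counting error only). A count of 0 allows up to 3 fragments, and at this floor Ly6d was at least 40.4-fold higher in the Pld6 KO than in the Pld6 WT. Against the Dnmt3L Het the bound was 63.7-fold and against the Dnmt3L KO 49.8-fold, all after scaling to the fragments in genes. Reads without molecular identifiers can be copies of 1 molecule, which no interval or floor here takes into account. Genes with 1 to 3 fragments were few in all libraries but the Pld6 WT (276, 444 and 466 genes against 1523), and whether copied reads carry part of the counts was not tested.

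**Figure D1:**
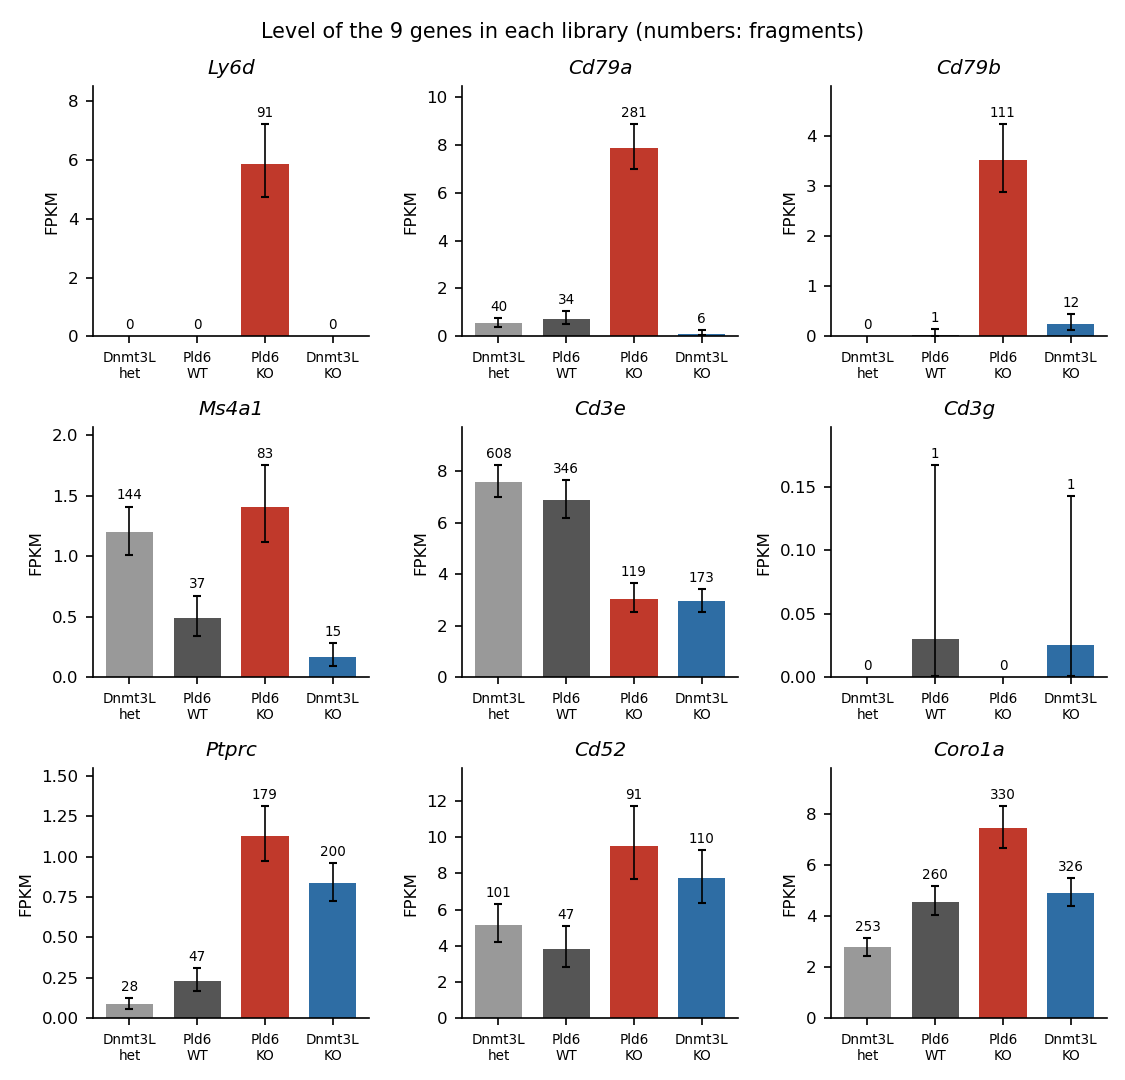
Level of each of the 9 genes in FPKM (bars, axis from 0) in the 4 libraries, with the number of fragments printed above each bar and 95% Poisson intervals as error bars. Ly6d, Cd79a and Cd79b stand at 5.87, 7.88 and 3.52 FPKM in the Pld6 KO and at most at 0.742 FPKM elsewhere, while Cd3e is highest in the controls.

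Both chains of the B cell receptor's signalling pair were most abundant in the Pld6 KO library. Cd79a had 40 fragments (0.548 FPKM) in the Dnmt3L Het, 34 (0.742) in the Pld6 WT, 281 (7.88) in the Pld6 KO and 6 (0.113) in the Dnmt3L KO. The controls were alike within counting error, the Pld6 KO lay far above both and the Dnmt3L KO below both. Scaled to depth, Cd79a was 11.0-fold higher in the Pld6 KO than in the Pld6 WT (95% interval 7.69 to 16.2) and 14.7-fold higher than in the Dnmt3L Het (10.6 to 21.1). Its ratio of Dnmt3L KO to Dnmt3L Het was 0.192 (0.0665 to 0.455). These ratio intervals, like those that follow, are exact and cover the counting of reads in 2 libraries, not the spread between animals.

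Cd79b, the partner chain, had 0 fragments in the Dnmt3L Het, 1 (0.0247 FPKM) in the Pld6 WT, 111 (3.52) in the Pld6 KO and 12 (0.254) in the Dnmt3L KO. It was all but unseen in the controls and intermediate in the Dnmt3L KO. The ratio of Pld6 KO to Pld6 WT was 148, with an interval as wide as 26.0 to 5891 because it rests on 1 fragment. Against the floor in the Dnmt3L Het, Cd79b was at least 77.6-fold higher in the Pld6 KO and at least 5.12-fold higher in the Dnmt3L KO. The Pld6 KO exceeded the Dnmt3L KO 15.2-fold (8.35 to 30.3). The 2 chains, which pair in the receptor, stood at an FPKM ratio of Cd79a to Cd79b of 2.24 in the Pld6 KO, 30.1 in the Pld6 WT and 0.443 in the Dnmt3L KO. The proportion in the last 2 libraries differed widely, at counts of 34 fragments or fewer for each gene.

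Ms4a1, which encodes the B cell surface protein CD20, was measured at 144 fragments (1.20 FPKM) in the Dnmt3L Het, 37 (0.490) in the Pld6 WT, 83 (1.41) in the Pld6 KO and 15 (0.171) in the Dnmt3L KO. The controls differed from each other by 2.47-fold (1.71 to 3.65), so the place of the Pld6 KO depended on the control. It was 2.99-fold higher than the Pld6 WT (2.0 to 4.53) and 1.21-fold the Dnmt3L Het, with an interval from 0.912 to 1.60 that holds 1. The Dnmt3L KO was lowest, at 0.133 of the Dnmt3L Het (0.0727 to 0.227).

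The T cell gene Cd3e went the opposite way to Cd79a and Cd79b in the Pld6 KO. In the Dnmt3L KO it lay below both controls, as Cd79a and Ms4a1 did. It had 608 fragments (7.59 FPKM) in the Dnmt3L Het, 346 (6.89) in the Pld6 WT, 119 (3.04) in the Pld6 KO and 173 (2.96) in the Dnmt3L KO. The 2 controls did not differ beyond counting error (ratio 1.12, 0.976 to 1.28), nor did the 2 mutants (1.13, 0.886 to 1.43), and both mutants lay below both controls. The ratio of KO to control was 0.458 in the Pld6 line (0.369 to 0.566) and 0.364 in the Dnmt3L line (0.306 to 0.432). Cd3g, the neighbouring gene for another CD3 chain, had 1 fragment in the Pld6 WT, 1 in the Dnmt3L KO and 0 in the others, at or under the floor everywhere, and no fold is given. Cd3d, the third chain, had 33 and 27 fragments in the Dnmt3L Het and Pld6 WT, 10 in the Pld6 KO and 14 in the Dnmt3L KO. The FPKM ratio of Cd3e to Cd3d lay between 10.9 and 16.8 in the 4 libraries. Cd247 (22, 6, 0 and 0 fragments), Cd4 (13, 3, 0 and 30) and Cd8a (0, 4, 0 and 0) were sparse, in the order Dnmt3L Het, Pld6 WT, Pld6 KO and Dnmt3L KO. Cd3e thus had the highest level of the CD3 genes in every library, while Cd3d, the next of them, did not exceed 0.588 FPKM.

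The 3 general leukocyte genes were higher in both mutants than in the control of the same line. Ptprc had 28 fragments (0.0867 FPKM) in the Dnmt3L Het, 47 (0.232) in the Pld6 WT, 179 (1.13) in the Pld6 KO and 200 (0.836) in the Dnmt3L KO. Both mutants lay above both controls, by 5.07-fold in the Pld6 line (3.66 to 7.15) and 9.14-fold in the Dnmt3L line (6.13 to 14.1). The Pld6 KO was 1.47-fold the Dnmt3L KO (1.19 to 1.81).

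Cd52, a small GPI-anchored glycopeptide of lymphocytes and other leukocytes, had 101 fragments (5.17 FPKM) in the Dnmt3L Het, 47 (3.84) in the Pld6 WT, 91 (9.54) in the Pld6 KO and 110 (7.72) in the Dnmt3L KO. The order was the same as for Ptprc in the mutants, with smaller steps of 2.58-fold in the Pld6 line (1.79 to 3.75) and 1.39-fold in the Dnmt3L line (1.05 to 1.84). Coro1a, an actin-binding coronin of leukocytes, had 253 fragments (2.79 FPKM) in the Dnmt3L Het, 260 (4.58) in the Pld6 WT, 330 (7.46) in the Pld6 KO and 326 (4.93) in the Dnmt3L KO. Its ratio was 1.69 in the Pld6 line (1.43 to 2.0) and 1.65 in the Dnmt3L line (1.39 to 1.95), but the Dnmt3L KO and the Pld6 WT did not differ beyond counting error (1.02, 0.862 to 1.20).

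**Figure D2:**
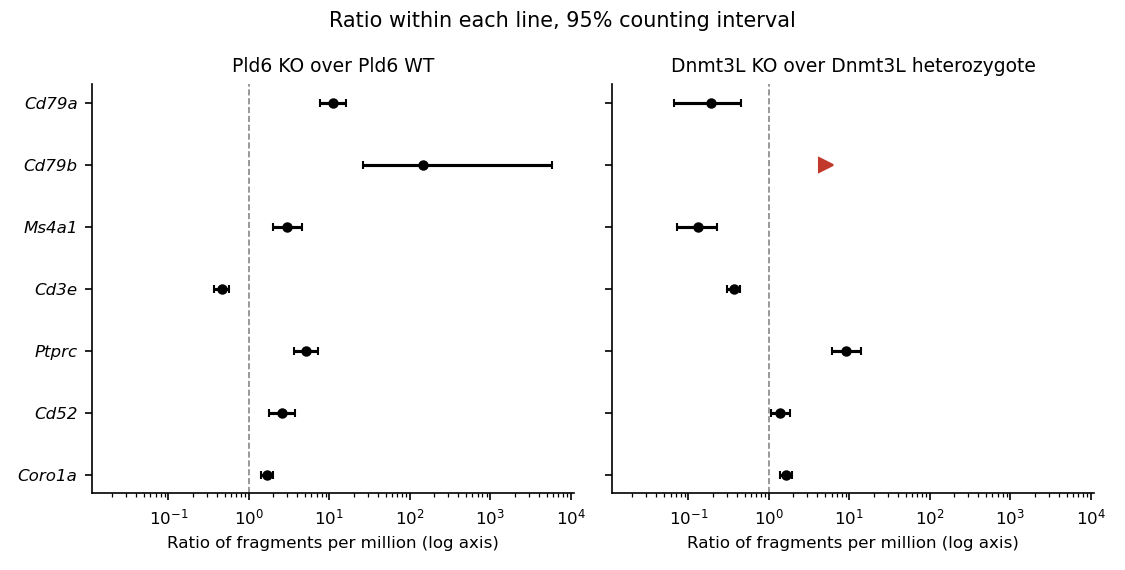
Ratio of depth-scaled fragments (log axis) of each mutant to the control of its own line for 7 genes, with 95% intervals for counting error. The arrow marks a lower bound, since Cd79b had 0 fragments in the Dnmt3L Het. Cd79a and Ms4a1 lie above 1 in the Pld6 line and below 1 in the Dnmt3L line, Cd3e lies below 1 in both, and Ptprc, Cd52 and Coro1a lie above 1 in both.

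Counted by 1 rule, the receptor pair was the part of the set that left the range of the controls. The rule took a gene as higher or lower if its FPKM + 1 was over 2-fold beyond the value in each of the controls. Besides Ly6d, 2 of 8 genes (Cd79a and Cd79b) were higher in the Pld6 KO and 0 were lower, against 1.04% and 5.41% of all 23980 genes. In the Dnmt3L KO 0 of 8 were higher and 0 lower, against 2.14% and 5.78% of all genes. Against the Pld6 WT alone, 3 of 8 were higher in the Pld6 KO (Cd79a, Cd79b and Cd52; 4.69% of all genes), and 0 were lower (6.46%). Against the Dnmt3L Het alone, 0 of 8 were higher in the Dnmt3L KO (3% of all genes) and 1, Cd3e, was lower (8.22%). The count of Cd52 was lost with a 3-fold threshold or with TMM-scaled fragments. Cd3e sat at the edge of the rule. It was counted as lower in both mutants with a pseudocount of 0.1 FPKM, with depth-scaled fragments in place of FPKM, or without the Pld6 WT control. Ptprc was counted as higher in both mutants with the lower pseudocount or with depth-scaled fragments.

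Without a threshold, 6 of 8 genes lay above both controls in the Pld6 KO and 1, Cd3e, below both. Among the 20595 genes with a fragment 30.8% lay above and 32% below. In the Dnmt3L KO 4 of 8 lay above both controls (33.8% of genes) and 3 below (33.3%). The difference of log2(FPKM + 1) from the mean of the controls had a median over the 8 genes of 0.87 in the Pld6 KO and 0.16 in the Dnmt3L KO, beside 0.00 over all genes in either mutant. It reached 2.43 for Cd79a (SD of the 2 controls 0.121) and 2.16 for Cd79b (SD 0.0248) in the Pld6 KO. Changes of weakly expressed genes appear smaller on this scale than they are.

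With a model over all genes, none of the 8 genes besides Ly6d passed the test. edgeR's quasi-likelihood test, which had 1 residual degree of freedom from the 2 controls, called 0 of 18657 genes in either mutant (0% in either direction). At an unadjusted p under 0.05 it gave 102 higher and 1383 lower genes in the Pld6 KO, and 203 and 1440 in the Dnmt3L KO. The smallest values among the 8 genes were those of Cd79b (adjusted p = 0.134) and Cd79a (adjusted p = 0.22) in the Pld6 KO, followed by Ptprc (adjusted p = 0.484). In the Dnmt3L KO the adjusted p was 0.538 for Cd79b, 0.581 for Ptprc, 0.637 for Cd79a and higher for the rest. Cd3g had too few fragments to be tested.

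The call on the receptor pair depended on the tool. DESeq2, which shares the estimate of the spread between genes in another way, called 15 genes higher (0.0729%) and 949 lower (4.61%) in the Pld6 KO. Among the 15 it gave Cd79b a log2 change of 8.42 (SE 2.25, adjusted p = 0.00527) and Cd79a one of 3.61 (SE 1.19, adjusted p = 0.0489). edgeR without the filter on low counts called Cd79b (adjusted p = 0.046) but not Cd79a (adjusted p = 0.12). Without the filter 0.0389% of genes were called higher and 2.09% lower in the Pld6 KO, and 0.0292% and 2.06% in the Dnmt3L KO, where DESeq2 called 0.0827% and 4.5%. Over these alternatives the adjusted p ran from 0.00527 to 0.157 for Cd79b and from 0.0489 to 0.24 for Cd79a. None of the other 6 genes was called by any of them. All p-values measure only the spread between these libraries, which the labels do not describe as replicate animals.

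As a measure of likeness to Ly6d, the share of each gene's FPKM, summed over the 4 libraries, that lay in the Pld6 KO was computed. It was 92.7% for Cd79b, 84.9% for Cd79a, 49.6% for Ptprc, 43.2% for Ms4a1, 37.8% for Coro1a, 36.3% for Cd52 and 14.9% for Cd3e, beside 100% for Ly6d. Of the 18492 genes with at least 20 fragments in all, 0.114% had a share at least as large as Cd79b, 0.243% as Cd79a, 3.75% as Ptprc and 74.6% as Cd3e. Cd3g, with 2 fragments in all, is left out of this ranking. Among the other 7 genes the receptor pair was the nearest to Ly6d and Cd3e the farthest.

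**Figure D3:**
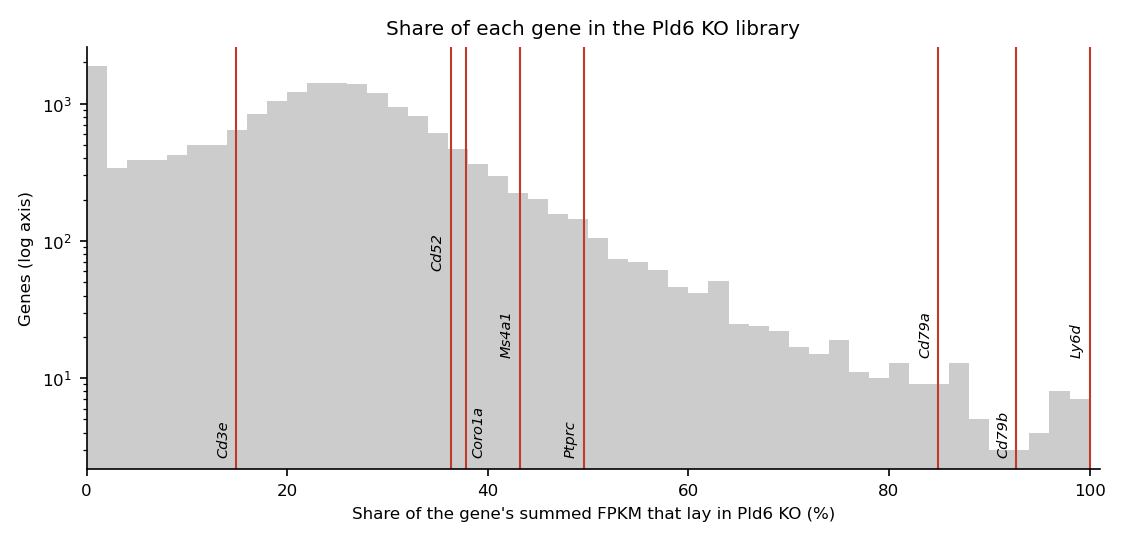
Number of genes (log axis) by the share of their FPKM, summed over the 4 libraries, that lay in the Pld6 KO, for 18492 genes with at least 20 fragments, with a red line for each gene of the set but Cd3g. Cd79a and Cd79b lie at 84.9% and 92.7%, Ly6d at 100% and Cd3e at 14.9%.

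Genes with the same pattern as Ly6d over the whole table were few. A total of 20 genes, Ly6d included, had at least 20 fragments in the Pld6 KO and at most 3 in each other library. Leaving out small RNAs, the first by share after Ly6d included Cd209d (38 fragments, 1.81 FPKM), Il23r (75, 1.03 FPKM), P2ry10 (25, 0.300 FPKM), Ugt1a10 (130.2, 1.35 FPKM) and Kctd8 (26, 0.305 FPKM). Cd209d encodes a C-type lectin, Il23r a cytokine receptor chain, P2ry10 a receptor of lymphoid cells and Ugt1a10 a glucuronosyltransferase. Ugt1a10 shares its last exons with the other Ugt1a genes, so its count is uncertain. None of the 8 other genes of the set met this rule.

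The genes around Ly6d did not share its pattern. Of 19 annotated genes that start within 100 kb, 12 were quantified and 8 had at least 10 fragments in some library, namely Arc, Jrk, 4933427E11Rik, Psca, Them6, Lynx1, Ly6k and Gml. Of these, 3 were highest in the Pld6 KO. Jrk was at 6.42 FPKM there against 2.27 to 6.26 elsewhere, Them6 at 19.6 against 6.25 to 17.4, and Lynx1 at 3.83 against 0.844 to 2.17. Ly6k, a neighbour of the same family that germ cells express, was highest in the controls (314 and 260 FPKM) and lower in the Pld6 KO (153) and Dnmt3L KO (130). Slurp1 and Lypd2, which lie between these genes, had 0 fragments in all 4 libraries.

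Within the Ly6/uPAR family, 24 of 25 listed genes were quantified, and Ly6d, on which the set was selected, was the 1 gene counted as higher in the Pld6 KO (1.04% of all genes). Spaca4 was counted as lower in the Pld6 KO (5.41% of all genes), and Tex101 and Spaca4 in the Dnmt3L KO (5.78%). With Ly6d, 7 were highest in the Pld6 KO (24% of genes with a fragment), the median change was 0.00, and 5 had no fragment in any library. The most abundant members were Tex101, Ly6k, Ly6e and Ly6c1. Tex101, a germ cell surface protein, was at 634 FPKM in the Pld6 KO and at 1163 in the Pld6 WT. Ly6e was at 32.0 FPKM in the Pld6 KO, between the controls (9.19 in the Pld6 WT and 39.1 in the Dnmt3L Het), and at 40.9 in the Dnmt3L KO. Ly6c1, found on leukocytes and endothelium, was at 18.8 FPKM in the Pld6 KO and at 7.10 FPKM in the Pld6 WT.

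Over a list of 20 B cell genes, 12 were highest in the Pld6 KO, and 9 of 17 once the 3 genes of the set were left out. Among all genes with a fragment, 24% were highest in that library. The summed level of the list was 26.5 FPKM in the Pld6 KO, 16.1 in the Dnmt3L Het, 10.6 in the Pld6 WT and 9.98 in the Dnmt3L KO. Without the 3 genes of the set it was 13.6 FPKM in the Pld6 KO, within the range of the other libraries (9.37 to 14.4). Pax5 was the 1 further gene counted as higher in the Pld6 KO (1.04% of all genes), and 0 of 20 were counted as lower (5.41%). The median change of the list was 0.38 in the Pld6 KO and -0.08 in the Dnmt3L KO.

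Pax5, the transcription factor that holds B cell identity, had 0 fragments in the Dnmt3L Het, 4 in the Pld6 WT, 50 (1.57 FPKM) in the Pld6 KO and 16 in the Dnmt3L KO, a ratio of 16.6 in the Pld6 line (6.11 to 63.5). Ebf1, a factor of early B cells that other tissues also use, had 274, 93, 359 and 307 fragments in that same order of libraries and was 5.14-fold higher within the Pld6 line (4.08 to 6.53). Spib (0, 14, 61 and 6 fragments) and Fcrla (23, 4, 52 and 3), picked like Pax5 after their values were seen, had the same high library. None of these 4 genes passed edgeR's test, with the smallest adjusted p that of Pax5 (0.622), nor did they with DESeq2 (adjusted p = 0.494 for Pax5).

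The rest of the B cell list was divided. Over the whole list 12 of 20 genes lay above both controls in the Pld6 KO (30.8% of genes with a fragment) and 3 below both (32%). Highest in the Pld6 KO were also Mzb1 (1.39 FPKM), Pou2af1 (0.960), Cd22 (0.401) and Blk (0.180, 13 fragments), against at most 1.08, 0.436, 0.196 and 0.0216 FPKM elsewhere. Other genes did not follow the receptor pair. Cd72, the gene of the list with the highest mean level, was highest in the Dnmt3L Het (10.7 FPKM) and lowest in the Pld6 KO (3.08 FPKM). Vpreb3, found in precursor B cells, was at 1.10 FPKM in the Pld6 KO, inside the range of the other libraries (0.491 to 1.58 FPKM). Of the genes of the pre-B cell stage, Vpreb1, Vpreb2, Igll1 and Rag2 had 0 fragments in the Pld6 KO. They had at most 8 in any other library, too few to place the Pld6 KO. Cr2, a receptor of mature B cells, had 0 in both mutants, and 32 and 11 in the Dnmt3L Het and Pld6 WT. Rag1 had 4 fragments in the Pld6 KO and 71 and 43 in the Dnmt3L Het and Pld6 WT.

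**Figure D4:**
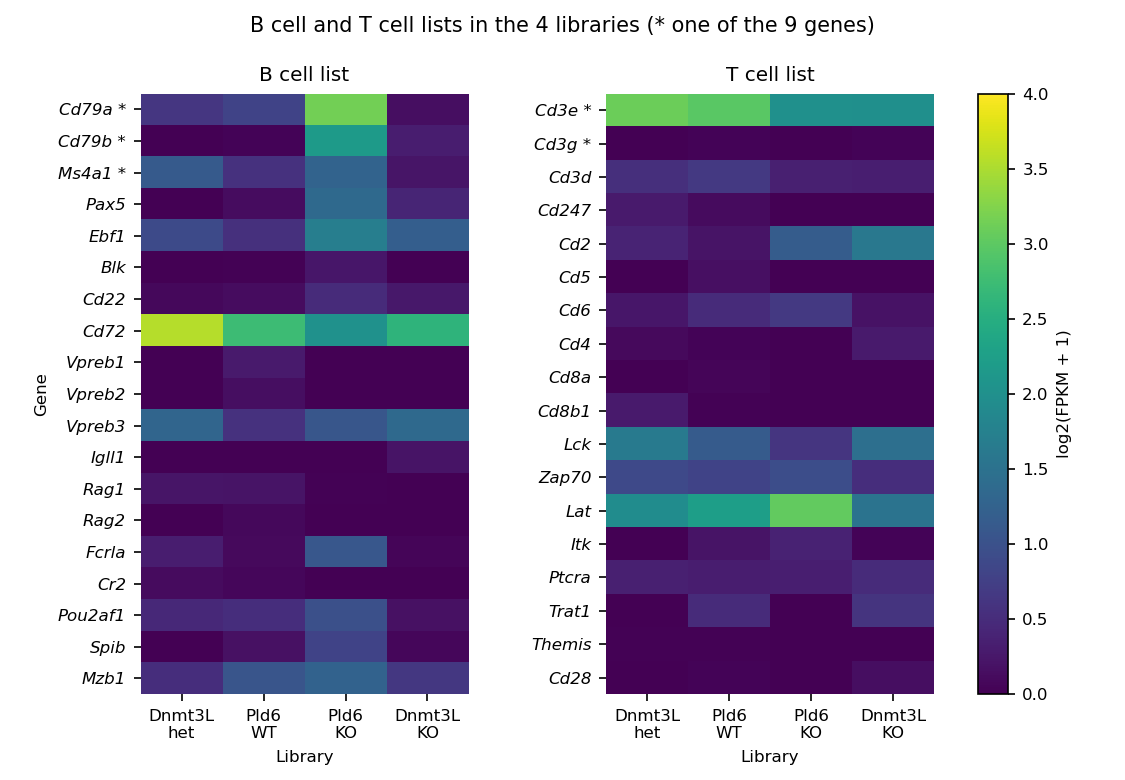
Level of genes of the B cell list (all but 1) and the T cell list (all 18) as log2(FPKM + 1) (colour, from 0 to 4) in the 4 libraries, with an asterisk at genes of the set. Over the whole lists 12 of 20 B cell genes and 4 of 18 T cell genes are highest in the Pld6 KO.

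Over a list of 18 T cell genes, 4 were highest in the Pld6 KO, beside 24% of all genes with a fragment. In the Pld6 KO, the shallowest library, 9 had 0 fragments, and 17362 of all 23980 genes had a fragment there. In the Dnmt3L Het, the Pld6 WT and the Dnmt3L KO 6, 0 and 5 of the list had 0. The summed level was 14.3 FPKM in the Pld6 KO, 15.1 in the Dnmt3L Het, 14.9 in the Pld6 WT and 10.8 in the Dnmt3L KO. Without Cd3e and Cd3g, the genes of the set, the sum was highest in the Pld6 KO, at 11.3 FPKM. It was then 7.56 in the Dnmt3L Het, 7.97 in the Pld6 WT and 7.80 in the Dnmt3L KO. The near-level sum of the whole list thus rested on Cd3e, which was lower in the Pld6 KO. The median change of the whole list was -0.02 in the Pld6 KO and -0.05 in the Dnmt3L KO. In the Pld6 KO 0 of 18 were counted as higher (1.04% of all genes) or lower (5.41%). Lat, an adaptor of the T cell receptor also used by mast cells and platelets, was the most abundant of the list in the Pld6 KO (7.18 FPKM, against 1.88 to 3.71 in the others). Lck, the kinase of the T cell receptor, was lowest there (0.539 FPKM, against 1.21 to 2.11). Cd2, an adhesion receptor of T and NK cells, was the 1 gene counted in the Dnmt3L KO, as higher (2.14% of all genes). It was at 2.04 FPKM there, with 0.156 and 0.311 in the controls and 1.24 in the Pld6 KO.

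In the signalling path of the B cell receptor, 9 of 14 genes were highest in the Pld6 KO (24% of all genes with a fragment) and 2, Cd79a and Cd79b, were counted as higher (1.04% of all genes). The median change was 0.59 in the Pld6 KO and -0.06 in the Dnmt3L KO. The kinase gene Btk was at 1.59 FPKM in the Pld6 KO, 0.695 in the Pld6 WT, 0.152 in the Dnmt3L Het and 0.244 in the Dnmt3L KO. The adaptor gene Blnk was at 1.58 FPKM in the Pld6 KO and at 0.398 to 0.713 elsewhere, and both were singled out after their values were seen. Plcg2, a phospholipase with a broader range of tissues, was at 8.31 FPKM in the Pld6 KO and at 3.95 to 6.36 elsewhere. Cd81, which many cell types express, had the highest level of the path and was highest in the Dnmt3L KO (201 FPKM, with 101 in the Pld6 KO). Pik3ap1, an adaptor of B cells, was highest in the Pld6 WT (2.08 FPKM, with 1.84 in the Pld6 KO). In the path of the T cell receptor 5 of 18 genes were highest in the Pld6 KO, near the 24% of all genes. There 0 were counted as higher (1.04% of all genes) or lower (5.41%), and the path's median change was -0.05 in either mutant. Its most abundant genes besides Cd3e and Lat, Fyn and Plcg1, are used by many cell types, and stood at 25.6 and 31.3 FPKM in the Pld6 KO.

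General leukocyte genes were mostly highest in one or the other mutant. Of a list of 20, with Ptprc, Cd52 and Coro1a among them, 12 were highest in the Pld6 KO and 7 in the Dnmt3L KO (9 and 7 of 17 without the 3 genes of the set). The background over all genes was 24% and 27.3%. The summed level was 55.6 FPKM in the Pld6 KO and 56.2 in the Dnmt3L KO, against 38.8 in the Dnmt3L Het and 22.4 in the Pld6 WT, with median changes of 0.46 and 0.50. Arhgdib, a regulator of small GTPases in blood cells, was at 12.1 FPKM in the Pld6 KO and at 8.55 in the Dnmt3L KO. Cytip, which binds cytohesin 1, was at 0.855 FPKM in the Pld6 KO and 0.373 in the Pld6 WT, against 9.63 and 12.4 in the Dnmt3L Het and KO. Cd37, a tetraspanin abundant on B cells, was the 1 gene of the list counted as higher in the Pld6 KO (1.04% of all genes). It was at 5.14 FPKM there, against 0.527 to 1.83 elsewhere.

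The 15 macrophage genes summed to 228 FPKM in the Dnmt3L KO, 186 in the Dnmt3L Het, 82.0 in the Pld6 KO and 43.9 in the Pld6 WT. Of these genes 14 were highest in the Dnmt3L KO (27.3% of all genes with a fragment). Lyz2, the macrophage lysozyme, was at 12.6 FPKM in the Pld6 KO, 2.82 in the Pld6 WT and 43.8 in the Dnmt3L KO. Aif1 was counted as lower in both mutants (5.41% and 5.78% of all genes). It was at 0.563 FPKM in the Pld6 KO and 3.98 in the Dnmt3L KO, against 58.5 in the Dnmt3L Het and 10.2 in the Pld6 WT. In the Pld6 KO 3 macrophage genes lay above both controls and 3 below both (30.8% and 32% of genes with a fragment), with a median change of -0.03. All 8 granulocyte genes had 0 fragments in the Pld6 KO, as had 6, 3 and 6 of them in the Dnmt3L Het, Pld6 WT and Dnmt3L KO. The 8 NK cell genes summed to 0.665 FPKM in the Pld6 KO, where 6 of them had 0 fragments, and to 0 to 0.289 FPKM in the others. The 8 erythroid genes were lowest in the Pld6 KO (19.0 FPKM) and highest in the Dnmt3L Het (848 FPKM).

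Because stratified epithelium also makes Ly6d, 21 epithelial genes were read beside it. They summed to 139 FPKM in the Pld6 KO, 118 in the Pld6 WT, 70.4 in the Dnmt3L Het and 70.0 in the Dnmt3L KO, with a median change of 0.08 in the Pld6 KO. The keratin genes of stratified epithelium Krt5, Krt15, Krt4 and Krt13 had 0 fragments in all 4 libraries, and Krt14 had 0 in the Pld6 KO. Other genes of the list were detected in the Pld6 KO, among them Sfn (205 fragments), Perp (83), Trp63 (46), Dsp (35) and Krt17 (27). There Sfn and Perp lay above both controls, Krt17 between them, and Trp63 and Dsp below both. Cldn4 was at 1.23 FPKM in the Pld6 KO and at 0.172 to 0.406 elsewhere. Whether epithelial cells carried the Ly6d fragments was not tested. Krt7, a keratin of simple epithelium, was the 1 gene of the list counted as higher in the Pld6 KO (1.04% of all genes). It had 200 fragments (4.56 FPKM) there and 5 to 12 in the others. Other keratin genes of the list did not share this step. In the Pld6 KO, Krt8 was at 0.118 FPKM (0.740 and 1.32 in the Dnmt3L Het and Pld6 WT). Krt18 was at 0.895 there (0.656 and 0.430) and Krt19 at 0.242 (0.184 and 0.503). Epcam and Esrp1, which carried most of the sum and which germ cells also express, were at 88.9 and 29.0 FPKM in the Pld6 KO, and at 79.2 and 24.3 in the Pld6 WT.

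**Figure D5:**
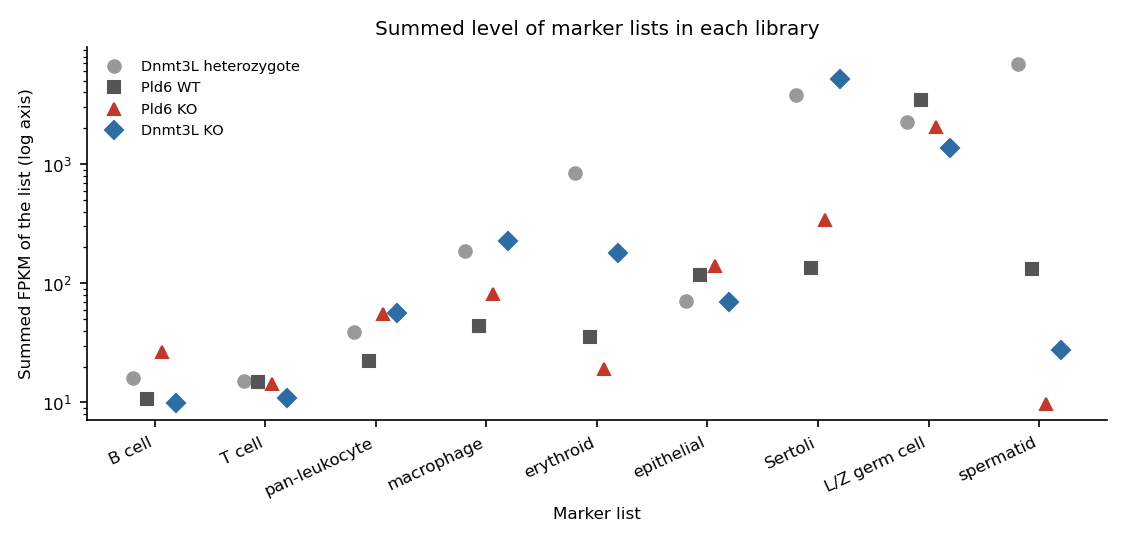
Summed FPKM (log axis) of 9 marker lists in each of the 4 libraries. The B cell list is highest in the Pld6 KO at 26.5 FPKM and the T cell list lies between 10.8 and 15.1 FPKM in all libraries, while the macrophage, erythroid, Sertoli cell and spermatid lists spread more widely between libraries.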

How the data were processed

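PolyA(+) RNA of FACS-purified L/Z spermatocytes had been made into strand-keeping libraries and sequenced as 50 bp reads from 1 end. The authors used TopHat2 for alignment and Cuffdiff for RefSeq gene levels, and the submitters' processing notes name the build mm10; versions are not given in the sources used here. The deposited table gives, per gene and library, an estimated count of fragments before scaling (97.3% to 97.4% whole numbers), and FPKM scaled by the authors to gene length and depth. A count of 0 was taken to allow 3 fragments.

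Libraries were grouped by their GEO labels. The genes of the set and all lists were chosen with earlier results of these data known. Named were the 9 genes of the set, the 6 genes most like Ly6d, neighbours of Ly6d with at least 10 fragments, the up to 4 genes with the highest mean FPKM in the lists followed, and defining markers. Other genes were named after their values were seen, and some that the rule names are not reported here. The numbers of the 2 controls only name them. Levels were compared as log2(FPKM + 1), and ratios of fragments, scaled to the library total, carry exact 95% intervals for counting error.

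edgeR 4.0.16 in R 4.3.3 was run on the estimated counts rounded to whole numbers, in 3 groups, with TMM, filterByExpr and Benjamini-Hochberg adjustment at 0.05. The common dispersion was 0.347. On simulated data for the Pld6 KO at this dispersion, with 18120 genes, it recovered 0 of 200 genes changed 4-fold, with 0 false calls. With 18127 genes it recovered 184 of 200 changed 64-fold, with 9 false calls. These rates were not split by level, so they do not show the power for genes as weak in the controls as Cd79a and Cd79b. Alternatives were no filter, RLE size factors, DESeq2 1.42.0, a pseudocount of 0.1, a 3-fold threshold, a minimum mean of 0.5 FPKM, TMM-scaled fragments, and leaving out either control. Promoters came from RefSeq (GRCm38.p6) and were matched by symbol.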

Additional observations from a re-analysis of the deposited data

Results flagged for a closer look

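Cd79a and Ms4a1 went in opposite directions in the 2 lines. The difference of log2(FPKM + 1) for Cd79a was 2.35 between the Pld6 KO and Pld6 WT libraries and -0.48 between the Dnmt3L KO and the Dnmt3L Het. For Ms4a1 it was 0.69 in the Pld6 line and -0.91 in the Dnmt3L line. Each side is 1 library, and whether the lines differ was not tested.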

How the results depend on the processing

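No paired analysis was possible because the mutants had 1 library each and the numbers of the controls only name them. Leaving out a control in the edgeR model was not run, since no residual degree of freedom would remain. The number of genes called in the Pld6 KO went from 0 to 8 higher and 429 lower without the filter, and to 15 and 949 with DESeq2. In the Dnmt3L KO it went from 0 to 6 and 423, and to 17 and 925. RLE size factors left all 4 counts at 0. Of the 8 genes besides Ly6d, 2 to 3 were above both controls in the Pld6 KO under every alternative run, Cd79a and Cd79b among them each time. With a pseudocount of 0.1 FPKM, 1 gene was below both controls in the Pld6 KO (Cd3e) and 5 were higher than in the Pld6 WT. In the Dnmt3L KO it gave 2 above both controls, 3 below both and 2 higher than in the Dnmt3L Het. With TMM-scaled fragments, 1 was below both controls in the Pld6 KO, and in the Dnmt3L KO 1 was above both, 1 below both and 1 higher than in the Dnmt3L Het. Without either control in turn the number below was 0 to 1 in either mutant, with the 1 (Cd3e) found without control replicate 2, the Pld6 WT. Of 72 recomputed changes of single genes, 17 moved beyond the spread of the controls and 1 changed sign (Cd3g in the Dnmt3L KO, without control replicate 1). The cause was not tested. Depth limits the genes at or near 0, Cd3g most of all, and the ratio for Cd79b against the Pld6 WT.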
